A study of Mus musculus with 6 samples.

Results

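Bcam, the basal cell adhesion molecule, is a laminin receptor, and it was examined here together with dystroglycan (Dag1) and 7 laminin chain genes, Lama2, Lama3, Lama4, Lama5, Lamb1, Lamb2 and Lamc1. These 9 genes, of 35275 in the deposited table, were taken by symbol. The set was chosen by the FPKM values of Bcam and Lama5, already known to differ between the genotypes, so their differences are given as a description, with no test, and the same holds for the other members in that contrast. RNA from mouse aorta was sequenced in 6 libraries, 3 labelled Wild-type and 3 labelled EC-Jag1KO. The series title describes a loss of the Notch ligand Jagged1 in mature endothelial cells, and the groups are called here by their labels. The sources used here do not give the Cre driver, the age of the animals or any treatment. Whether libraries of a genotype came from separate animals is not stated in the labels, so the spread given here is that between these samples and may be technical in part.

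Laminins are heterotrimers of 1 alpha, 1 beta and 1 gamma chain that polymerise into the sheet on which a basement membrane is built. In the vessel wall, endothelium and every smooth muscle cell are wrapped in such a membrane, and the alpha chain decides which receptors can bind. The chain encoded by Lama5 is the known ligand of Bcam, an immunoglobulin superfamily protein also called Lutheran, whereas dystroglycan binds the alpha chain encoded by Lama2 and other matrix proteins through sugars added to it. The alpha chain encoded by Lama4 is shorter, is made by endothelium and smooth muscle, and lacks the end domain used for polymerisation. The longest coding sequence annotated for Lama4 had 5448 bases, against 9354 for Lama2, 9990 for Lama3 and 11154 for Lama5 (GENCODE M21).

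Bcam (ENSMUSG00000002980) occupies the minus strand of chromosome 7 from 19756131 to 19771016 and Lama5 (ENSMUSG00000015647) the minus strand of chromosome 2 from 180176373 to 180225859, in mm10. Lamb2 (ENSMUSG00000052911, plus strand, 108479862 to 108490530) and Dag1 (ENSMUSG00000039952, minus strand, 108205955 to 108263924) are both on chromosome 9, 215.9 kb apart, and Lama2 (ENSMUSG00000019899, minus strand, 26980036 to 27619758) and Lama4 (ENSMUSG00000019846, plus strand, 38965515 to 39110188) are both on chromosome 10. Lamb1 (ENSMUSG00000002900) lies on the plus strand of chromosome 12 from 31265234 to 31329644, Lamc1 (ENSMUSG00000026478) on the minus strand of chromosome 1 from 153218922 to 153332786, and Lama3 has the identifier ENSMUSG00000024421. No annotated gene overlaps Lama5, Lamb2, Dag1, Lama4 or Lamb1. The lincRNA Gm26600 on the opposite strand overlaps Bcam, at 0.155 FPKM or less. FPKM counts fragments relative to gene length and to the total assigned in the library, which allows levels of different genes to be set side by side.

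The 250 bases upstream of the RefSeq start (GRCm38.p6) are shown for Bcam, Lama5 and Lamb2, the members whose libraries separated by genotype. They are chr7:19770533-19770782 on the minus strand, chr2:180225860-180226109 on the minus strand and chr9:108479612-108479861 on the plus strand, printed 5′ to 3′ on the gene's strand, with each GGGCGG, the core of Sp1 and KLF sites, in capitals on either strand. The RefSeq start of Bcam lies inside the span given above, so its window overlaps that span.
Bcam: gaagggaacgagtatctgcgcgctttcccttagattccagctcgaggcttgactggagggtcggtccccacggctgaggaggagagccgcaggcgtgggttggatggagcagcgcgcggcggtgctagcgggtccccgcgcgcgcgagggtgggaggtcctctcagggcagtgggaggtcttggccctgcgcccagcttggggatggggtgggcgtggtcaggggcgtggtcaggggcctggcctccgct
Lama5: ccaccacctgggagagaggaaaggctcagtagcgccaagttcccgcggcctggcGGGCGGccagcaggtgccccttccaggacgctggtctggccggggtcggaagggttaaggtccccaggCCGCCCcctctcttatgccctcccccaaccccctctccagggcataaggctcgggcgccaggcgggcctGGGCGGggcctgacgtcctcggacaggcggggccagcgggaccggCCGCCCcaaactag
Lamb2: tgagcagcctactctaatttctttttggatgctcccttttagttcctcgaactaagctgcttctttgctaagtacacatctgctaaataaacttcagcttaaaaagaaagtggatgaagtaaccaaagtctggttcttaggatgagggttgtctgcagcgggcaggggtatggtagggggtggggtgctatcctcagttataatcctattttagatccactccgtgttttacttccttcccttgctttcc

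These windows differ in composition. GC content was 70% for Bcam and 72.4% for Lama5, against 43.6% for Lamb2 and a median of 52.4% over 32851 promoters of the same length. GGGCGG occurred 4 times in the Lama5 window and 0 times in those of Bcam and Lamb2, and 32.7% of all promoters hold it. GTGGGAA, a core of sites for RBPJ, the DNA-binding partner of Notch, was searched on both strands and occurred in 0 of the 7 member windows, which cover 6 members, against 5.42% of all promoters. CACGTG, an E-box of the kind that Hey and Hes factors bind, occurred in 0 of the 7 windows, against 6.02%. The broader E-box CANNTG, which includes CACGTG, occurred 2 times in the Lama5 window, 1 time in that of Lamb2 and 0 times in that of Bcam, against 66.2% of all promoters. Such matches describe these letters in these windows.

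Reads assigned to genes, recovered from the deposited values, numbered 19889910 to 25914325 per library. The targeted gene Jag1 stood at 9.86 to 16.9 FPKM in Wild-type and 9.42 to 19.6 FPKM in EC-Jag1KO libraries, with a log2 difference of 0.16 (95% interval -0.50 to 0.81) and overlapping groups. Smooth muscle can make Jag1 too, so this value does not check a deletion in endothelium. Xist was at 26.9 FPKM in Wild-type replicate 3 and 40.7 FPKM in EC-Jag1KO replicate 3 and at 0.0738 FPKM or less in the other 4 libraries, so each genotype held 1 library of female type and did not come from a single animal. Markers of the wall were abundant, with the smooth muscle actin gene Acta2 at 6173 to 7672 FPKM and the endothelial gene Pecam1 at 172 to 230 FPKM. Across the genome, limma called 0 genes (0%) at an adjusted p of 0.05 among the 12165 averaging 1 FPKM or more, and voom on recovered reads also gave 0. At an unadjusted p under 0.05 limma gave 421 genes lower (3.46%) and 517 higher (4.25%).

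Bcam was the most abundant member and the one with the largest difference among those tested. It measured 572, 565 and 595 FPKM in the Wild-type libraries and 347, 356 and 350 FPKM in the EC-Jag1KO libraries. All 3 EC-Jag1KO libraries lay below all 3 Wild-type libraries, and within each genotype the values were close. The means were 578 ± 16 and 351 ± 4.3 FPKM (SD, n = 3 each), so the EC-Jag1KO mean was 60.8% of the Wild-type mean. The difference on the log2(FPKM + 1) scale was -0.72, with an SE of 0.10 and a 95% interval from -0.96 to -0.47. Its mean over the 6 libraries was at or above that of 99.4% of the tested genes. Between 17187 and 37179 reads stood behind each Bcam value, so counting error was 0.763% or less, below the spread between libraries. The coefficient of variation was 2.72% in Wild-type and 1.22% in EC-Jag1KO libraries. In RNA from bulk tissue, fewer cells of a type and less RNA per cell cannot be told apart.

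**Figure D1:**
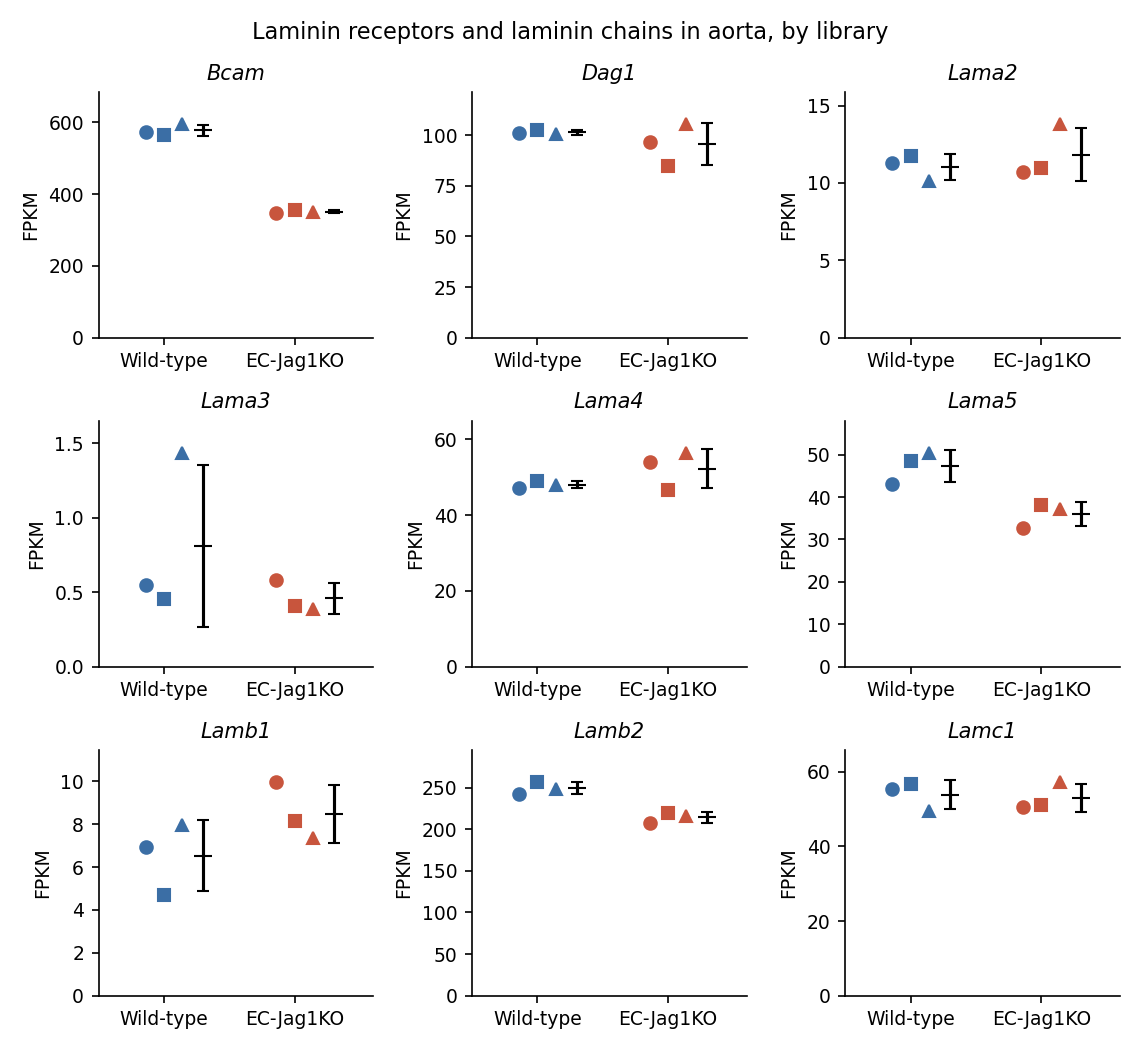
Level of each of the 9 genes in FPKM (vertical axes, each from 0) by library, with Wild-type in blue and EC-Jag1KO in red, and circles, squares and triangles for replicates 1, 2 and 3. Black marks give the mean ± SD of 3 libraries; the genotypes are apart in Bcam (565 to 595 against 347 to 356 FPKM), Lama5 and Lamb2 and overlap in the other 6 genes.

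Dag1, the other receptor among the members, links laminin outside the cell to dystrophin or utrophin inside. It stood at 101, 103 and 100.3 FPKM in Wild-type libraries and 96.5, 84.9 and 105 in EC-Jag1KO libraries. The EC-Jag1KO libraries spanned the Wild-type range on both sides. The log2 difference was -0.09, with a 95% interval from -0.34 to 0.17. The Bcam level per unit of Dag1 was 5.71 ± 0.21 in Wild-type and 3.70 ± 0.44 in EC-Jag1KO libraries (n = 3 each), with no overlap. As Dag1 itself overlapped, this ratio largely restates the Bcam difference.

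Among the alpha chains, Lama5 was the one whose libraries separated by genotype. Lama5 measured 43.1, 48.5 and 50.4 FPKM in Wild-type libraries and 32.6, 38.0 and 37.1 in EC-Jag1KO libraries. Every EC-Jag1KO library lay below every Wild-type library. The means were 47.3 ± 3.7 and 35.9 ± 2.9 FPKM (n = 3 each), 75.9% of Wild-type, and the log2 difference was -0.39 with a 95% interval from -0.64 to -0.14.

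Lama4, the alpha chain of laminins that MCAM also binds, overlapped Lama5 in level in Wild-type libraries, and its genotypes overlapped. It stood at 47.1, 48.9 and 47.99 FPKM in Wild-type libraries and 53.9, 46.6 and 56.4 in EC-Jag1KO libraries, a log2 difference of 0.12 with an interval from -0.12 to 0.36. EC-Jag1KO replicate 2 was below every Wild-type library and the other two were above them. Lama2, the chain of muscle and nerve basement membranes, had 11.3, 11.7 and 10.1 FPKM against 10.7, 10.99 and 13.8 FPKM, with overlapping groups. Lama5 per unit of Lama4 was 0.986 ± 0.067 in Wild-type and 0.693 ± 0.11 in EC-Jag1KO libraries (n = 3 each), without overlap. As Lama4 itself overlapped, this ratio largely restates the Lama5 difference.

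Lama3, the alpha chain of epithelial laminins, was near the lower limit of what is expressed. It had 0.546, 0.453 and 1.43 FPKM in Wild-type libraries and 0.580, 0.410 and 0.388 in EC-Jag1KO libraries, on 86 to 389 reads, and was not tested because its mean of 0.635 FPKM was under the minimum of 1. The single high value was that of Wild-type replicate 3, and without that library the log2 difference moved from -0.27 to -0.041. Lama1, an alpha chain of embryonic laminins outside the members, had 0 to 14 reads per library.

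The makeup of alpha chain transcripts was read as shares. Of the summed FPKM of all 5 alpha chain genes, Lama5 made up 42.3%, 44.2% and 45.8% in Wild-type and 33.4%, 39.6% and 34.5% in EC-Jag1KO libraries. The Lama4 share was 46.1%, 44.6% and 43.7% against 55.1%, 48.5% and 52.3%. Both shares separated by genotype, Lama5 lower at 35.8 ± 3.3% against 44.1 ± 1.8% and Lama4 higher at 52.0 ± 3.3% against 44.8 ± 1.2% (n = 3 each). The Lama2 share was 10.3 ± 1.0% and 11.7 ± 1.0%, and overlapped. The summed alpha chain level was 107 ± 4.5 FPKM in Wild-type libraries and 100.5 ± 6.3 in EC-Jag1KO libraries, again with overlap. Shares of 1 sum are not independent of each other. The Lama5 values were among those by which the set was chosen, so these shares largely restate them and are no further result.

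**Figure D2:**
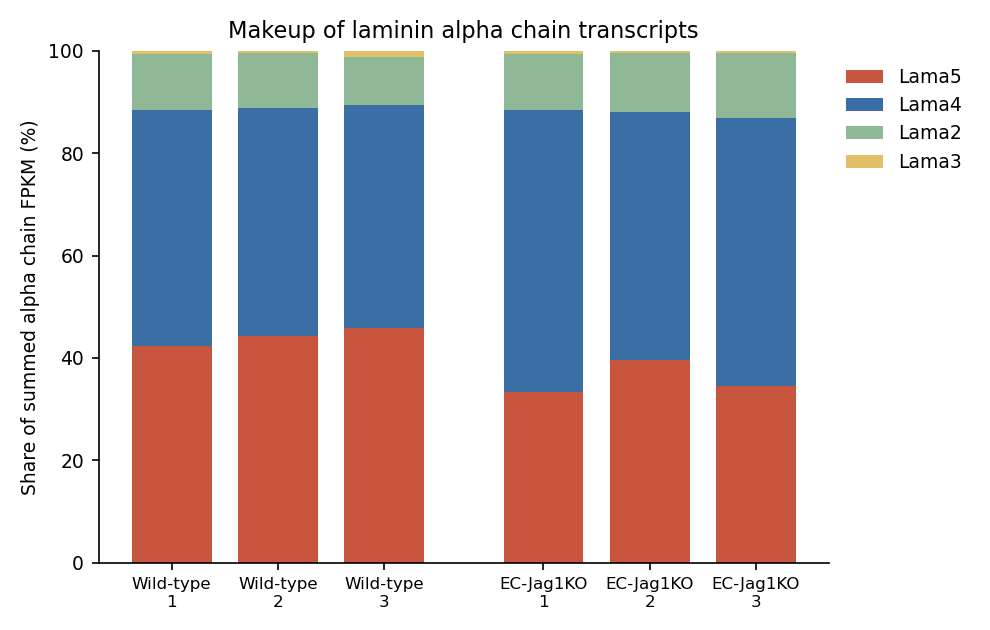
Share of each alpha chain gene in the summed alpha chain FPKM (vertical axis, percent) in each of the 6 libraries (horizontal axis, replicate number under its genotype). Lama5 (red) took 42.3% to 45.8% in Wild-type and 33.4% to 39.6% in EC-Jag1KO libraries, and Lama4 (blue) took 43.7% to 46.1% and 48.5% to 55.1%; Lama1, under 0.1%, is not drawn.

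Lamb2, the beta chain of mature vascular laminins, was the dominant beta chain and was lower in every EC-Jag1KO library. It measured 243, 257 and 248 FPKM in Wild-type libraries and 207, 220 and 216 in EC-Jag1KO libraries, means of 249 ± 7.1 and 214 ± 6.7 FPKM (n = 3 each). The groups did not overlap, the EC-Jag1KO mean was 86.0% of Wild-type, and the log2 difference was -0.22, with an interval from -0.44 to 0.010. Lamb1, the beta chain more typical of developing tissue, had 6.96, 4.70 and 7.96 FPKM against 9.97, 8.17 and 7.34 FPKM, with overlapping groups and a log2 difference of 0.35 (interval -0.092 to 0.79). The Lamb1 share of beta chain FPKM was 2.56 ± 0.68% in Wild-type and 3.82 ± 0.69% in EC-Jag1KO libraries, with no overlap. Lamb1 rested on 683 to 1263 reads per library and varied more than Lamb2, with a coefficient of variation of 25.5% in Wild-type against 2.84%.

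Lamc1, the gamma chain shared by nearly all vascular laminins, overlapped between the genotypes. Its values were 55.3, 56.8 and 49.6 FPKM in Wild-type libraries and 50.7, 51.0 and 57.2 in EC-Jag1KO libraries, a log2 difference of -0.025 with an interval from -0.26 to 0.21. The gamma chain Lamc3 stood at 9.52 ± 3.35 and 9.30 ± 3.53 FPKM (n = 3 each). The beta chain Lamb3, a partner of Lama3, had 4 to 14 reads per library.

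The order of levels was the same in both genotypes: Bcam, Lamb2, Dag1, Lamc1, Lama4, Lama5, Lama2, Lamb1 and Lama3. In Wild-type libraries the ranges of neighbours in this order were apart except for Lama4 and Lama5. In EC-Jag1KO libraries Lama4 and Lama5 were apart and Lamc1 and Lama4 overlapped. Summed beta chain FPKM exceeded summed alpha chain FPKM 2.39-fold in Wild-type and 2.22-fold in EC-Jag1KO libraries, and the gamma chains reached 0.604 and 0.631 of the alpha sum. The genotypes overlapped in each of these ratios. These ratios follow the gene lengths in the deposited table, which equal the longest annotated transcript in 7 of the 9 members.

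**Figure D3:**
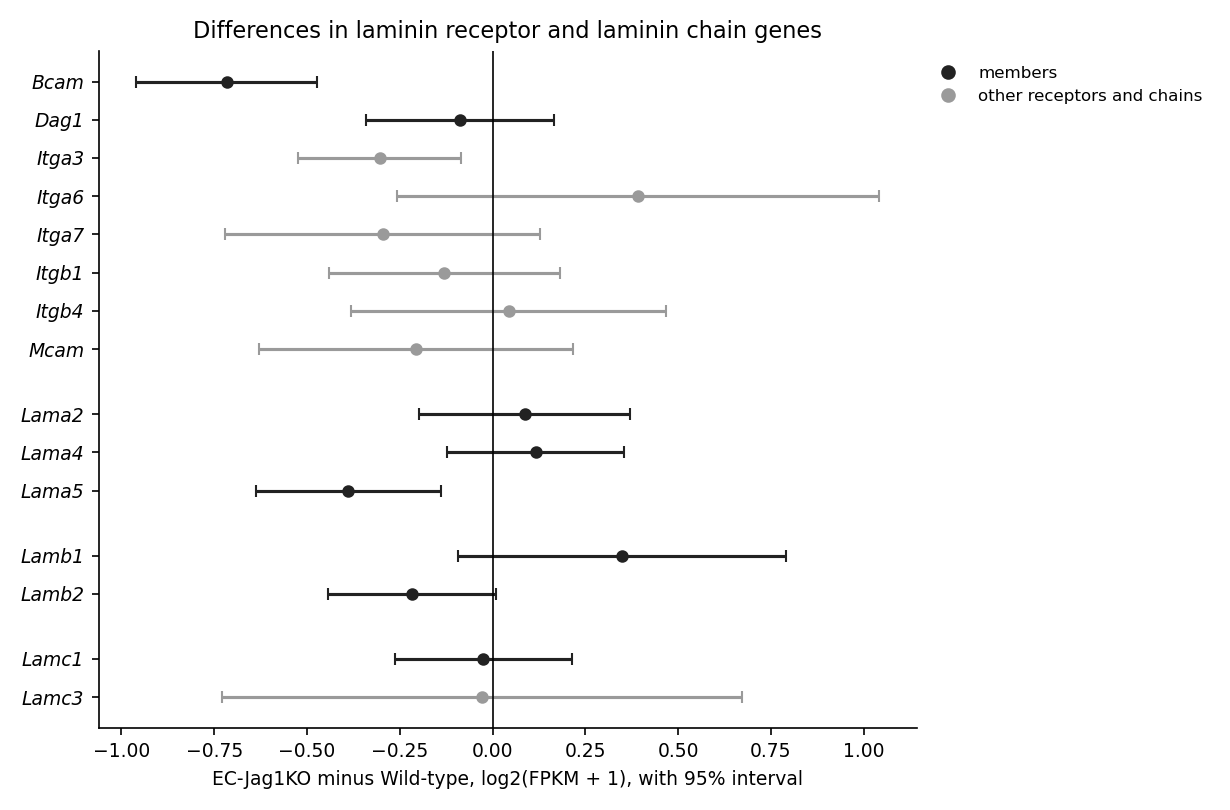
EC-Jag1KO minus Wild-type difference on the log2(FPKM + 1) scale (horizontal axis) with its 95% interval from limma, for the 8 members with a mean of at least 1 FPKM (black) and for other laminin receptors and chains (grey). Bcam lies farthest from 0 on the lower side at -0.72, followed by Lama5 at -0.39 and Itga3 at -0.30. On the higher side Itga6 lies at 0.39 and Lamb1 at 0.35, each with an interval that includes 0.

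Of the 8 members tested, 3 were lower with groups that do not overlap (Bcam, Lama5 and Lamb2) and 0 were higher. Among all genes tested 6.73% were lower without overlap, 6.84% higher, and 13.6% either. The median log2 difference of the 8 was -0.056, against -0.00022 over all genes. None of the 8 passed at an adjusted p of 0.05 in limma, as none of all genes did, and the members were chosen with this contrast known, so nothing is read from these counts.

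Bcam and Lama5 were both lower in EC-Jag1KO libraries, and Bcam differed by more. The ratio of Bcam to Lama5 FPKM was 13.3, 11.7 and 11.8 in Wild-type and 10.6, 9.36 and 9.44 in EC-Jag1KO libraries. The 2 sets did not overlap, with means of 12.2 ± 0.89 and 9.81 ± 0.72 (n = 3 each). On the log2 scale the ratio was 3.61 ± 0.10 in Wild-type and 3.29 ± 0.10 in EC-Jag1KO libraries, a difference of -0.32, and with 1 library left out it ranged from -0.38 (without EC-Jag1KO replicate 1) to -0.26 (without Wild-type replicate 1). In these genes the libraries fall into 2 clusters by genotype, so no pooled correlation of Bcam with Lama5 is given, and 3 libraries within a genotype are too few for one. Within Wild-type the library lowest in Lama5 was replicate 1 and the lowest in Bcam replicate 2, while replicate 3 was highest in both. Within EC-Jag1KO, replicate 1 was lowest and replicate 2 highest in both.

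**Figure D4:**
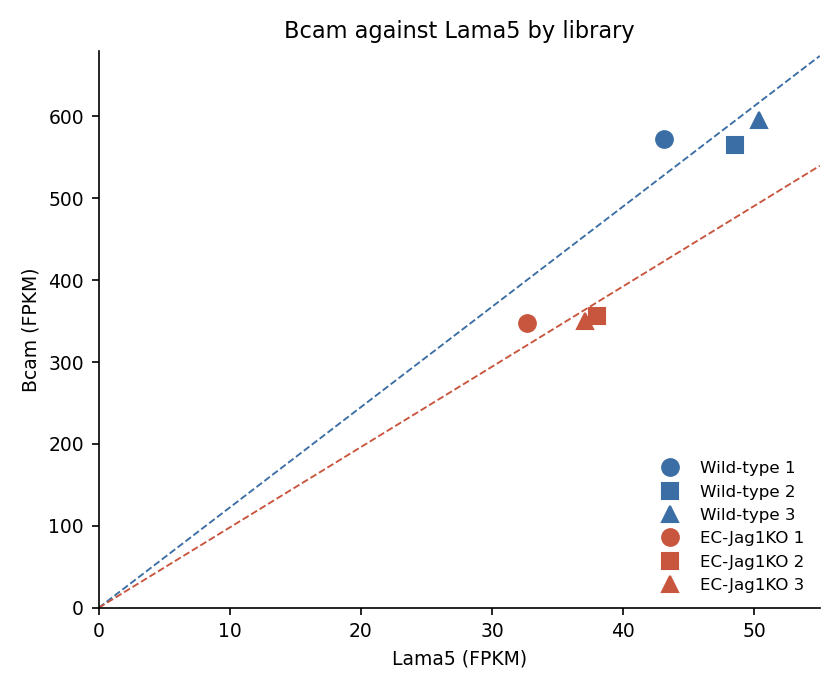
Bcam FPKM (vertical axis) against Lama5 FPKM (horizontal axis) in the 6 libraries, with Wild-type in blue and EC-Jag1KO in red; dashed lines have the mean ratio of each genotype as slope, 12.2 and 9.81. The genotypes form 2 separate clusters, and the EC-Jag1KO libraries are lower on both axes.

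Set against the other chains, Bcam was lower in EC-Jag1KO libraries too. These ratios largely restate the Bcam values by which the set was chosen and are no further result. Bcam per unit of Lamb2 was 2.32 ± 0.10 in Wild-type and 1.64 ± 0.03 in EC-Jag1KO libraries (n = 3 each). Bcam per unit of Lamc1 was 10.8 ± 1.1 and 6.65 ± 0.46, and per unit of Lama4 it was 12.0 ± 0.44 and 6.76 ± 0.76. In each of these ratios the genotypes did not overlap. Lama5 per unit of Lamb2 was 0.190 ± 0.013 and 0.167 ± 0.008, and also lay apart. Lama5 too was used to choose the set, so this ratio is no further result.

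The genes whose pattern over the 6 libraries was most like that of Bcam were Npnt, Abr, Ppp2r1a, Hnrnpa3 and Pwwp2b, with Pearson r of 0.998, 0.996, 0.994, 0.977 and 0.973 among 8053 named protein-coding genes averaging 5 FPKM or more. Npnt encodes nephronectin, a basement membrane ligand of integrins, and had 340.01, 339 and 341 FPKM in Wild-type libraries and 249.7, 253 and 251 in EC-Jag1KO libraries. The Wild-type values had an SD of 0.762 FPKM around a mean of 340.1, and the EC-Jag1KO values an SD of 1.40 around 251. For Lama5 the closest were Lrrc47, Ssh3, Fmnl3, Itga3 and Cxxc5, with r of 0.984, 0.984, 0.983, 0.979 and 0.978. Fmnl3 is a formin that builds actin filaments and Ssh3 a cofilin phosphatase. All 10 genes were lower in EC-Jag1KO libraries without overlap. That follows from choosing them by likeness to Bcam and Lama5, which separate by genotype, so nothing is read from it. Pearson r is a description of likeness over these libraries.

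Itga3, the integrin alpha chain that binds the product of Lama5 with Itgb1, stood at 64.0, 68.5 and 69.0 FPKM in Wild-type libraries and 51.4, 58.0 and 53.4 in EC-Jag1KO libraries. Its groups did not overlap, with a log2 difference of -0.30 (interval -0.52 to -0.085). The other laminin-binding integrin genes overlapped. Itgb1, the shared beta chain, was at 552 ± 43 and 505 ± 52 FPKM, and Itga7, the muscle laminin receptor, at 83.8 ± 3.6 and 69.6 ± 19.0 FPKM (n = 3 each). Itga6 and Itgb4 stood lower, at 2.19 ± 1.16 and 3.03 ± 0.64 FPKM and at 5.04 ± 1.31 and 5.18 ± 0.93 FPKM. Of the 5 genes, 0 passed limma's adjusted threshold, and 1 was lower and 0 higher at an unadjusted p under 0.05. Over all genes tested, 3.46% were lower and 4.25% higher at that limit. Mcam, a relative of Bcam that binds laminins with the Lama4 chain, was at 451, 429 and 421 FPKM against 418, 444 and 285 FPKM, so only EC-Jag1KO replicate 3 was far from the others. Alcam stood at 8.98 ± 1.26 and 11.8 ± 3.4 FPKM.

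Around Dag1, the 13 genes of the dystrophin-glycoprotein complex gave 0 calls at an adjusted p of 0.05 in limma. At an unadjusted p under 0.05, 1 was higher and 0 lower, against 4.25% and 3.46% of all genes tested. The median log2 difference of the 13 was 0.022. The higher gene was Sgcd, the sarcoglycan delta of smooth and striated muscle, at 13.0, 8.65 and 6.95 FPKM in Wild-type libraries and 16.5, 11.8 and 21.2 in EC-Jag1KO libraries, with 1 Wild-type library inside the EC-Jag1KO range and a log2 difference of 0.74. The syntrophins Sntb1 and Sntb2 had log2 differences of -0.31 and 0.29, with overlapping groups, and Sgce, a sarcoglycan, was lower without overlap at 39.3 ± 2.5 and 34.5 ± 0.22 FPKM (n = 3 each). Of 15 tested genes that build the laminin-binding sugar of dystroglycan, 0 passed and 0 had an unadjusted p under 0.05, with a median of -0.029. Dpm3 and Pomt2 had the largest differences at -0.23 and -0.20, and the lowest value of each was that of EC-Jag1KO replicate 3.

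Among 9 basement membrane partners of laminin, 0 passed limma's adjusted threshold. At an unadjusted p under 0.05, 1 was lower and 0 higher, against 3.46% and 4.25% of all genes tested. Col4a1, a chain of network collagen IV, had 191, 212 and 192 FPKM in Wild-type libraries and 172, 166 and 162 in EC-Jag1KO libraries, without overlap. Nid1, the nidogen that bridges laminin and collagen IV, lay the other way without overlap, at 23.98 ± 2.0 and 28.0 ± 2.4 FPKM (n = 3 each). Col18a1 stood at 363 ± 74 and 272 ± 32 FPKM and overlapped. Of 8 tested genes of the membrane skeleton and its linkers, 0 passed, and 1 was higher and 1 lower at an unadjusted p under 0.05. These were Ank2, an ankyrin, at 8.88 ± 1.17 and 14.4 ± 0.64 FPKM, and Tln1, the talin that ties integrins to actin, at 134 ± 2.7 and 114 ± 6.9 FPKM, and the next largest difference was -0.19 in Ank1. Over all 54 tested genes of these lists outside the members, 5 were lower and 2 higher without overlap, against 6.73% and 6.84% of all genes tested, a share near that background, and the median log2 difference was -0.029.

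The markers of the cells of the wall moved as follows beside these values. The 8 smooth muscle markers summed to 14204 to 14891 FPKM in Wild-type and 11809 to 14027 FPKM in EC-Jag1KO libraries. Of the 8, 7 were lower, 5 of them without overlap, with a median log2 difference of -0.24. Over all genes tested 6.73% were lower without overlap. An alternative chosen after the data were seen took the mean smooth muscle marker level as a covariate. With it the Bcam difference was -0.73 (interval -1.11 to -0.36, against -0.96 to -0.47 without it). That of Lama5 was -0.43 (interval -0.85 to -0.019, against -0.64 to -0.14). The smooth muscle marker sums did not overlap between the genotypes, so this fit cannot tell marker level from genotype. With the endothelial marker level as a covariate, also chosen after the data were seen, the Bcam and Lama5 differences were -0.73 and -0.40. The 8 endothelial markers summed to 277 to 404 FPKM and 318 to 402 FPKM, with 6 higher and 0 apart. The 8 adipocyte markers varied widely, from 295 to 1960 FPKM in Wild-type and 922 to 1910 FPKM in EC-Jag1KO libraries, and with their level as a covariate the Bcam difference was -0.73 and that of Lama5 -0.37.

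Mesothelial and epithelial cells also make Bcam and Lama5, and their markers were scarce. The 8 mesothelial markers summed to 7.16 to 10.4 FPKM in Wild-type and 9.22 to 14.8 FPKM in EC-Jag1KO libraries. Most of that sum was Krt18, at 6.28 to 12.3 FPKM with overlapping groups. The mean difference was upward in 8 of 8, without overlap in 4, but all except Krt18 averaged under 1 FPKM and were not tested. The share of tested genes higher without overlap, 6.84%, does not cover genes under that minimum, so nothing is read from this count. Msln was at 0.285 FPKM or less and Upk1b at 0 in all Wild-type libraries. The 8 epithelial markers summed to 0.374 to 0.706 FPKM and 0.275 to 3.47 FPKM, and 4 of them were at 0 in all Wild-type libraries. Their part in the Bcam and Lama5 values was not tested.

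**Figure D5:**
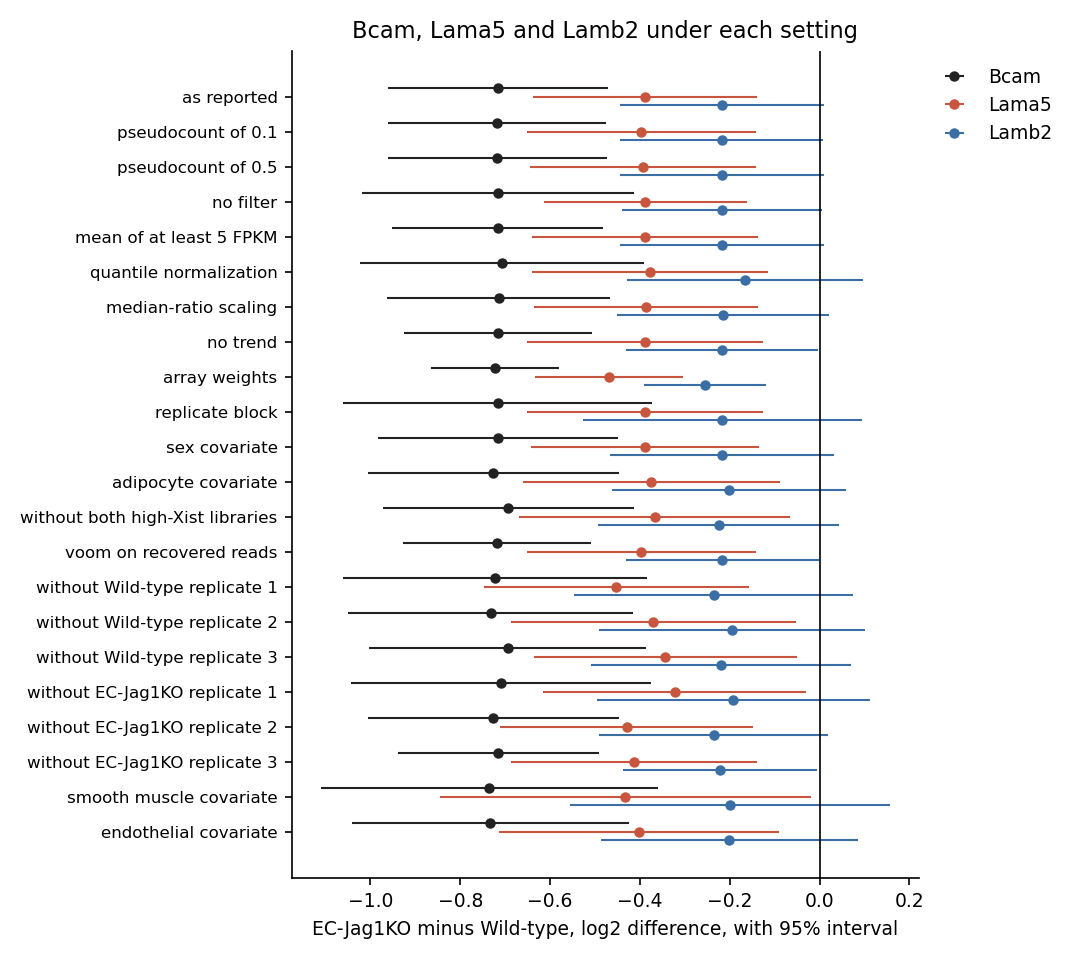
EC-Jag1KO minus Wild-type log2 difference (horizontal axis) of Bcam (black), Lama5 (red) and Lamb2 (blue) with 95% intervals, as reported (top) and under 21 other settings (vertical axis). Bcam ranged from -0.73 to -0.69, Lama5 from -0.47 to -0.32 and Lamb2 from -0.25 to -0.17 over the 21 settings.

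Where groups do not overlap, leaving out a library cannot turn the direction, so these ranges describe the size of the differences. With the 2 libraries high in Xist left out, Bcam was at -0.69, Lama5 at -0.37 and Lamb2 at -0.22. Among the members whose groups overlapped, the sign of Lama2, Lama4 and Lamc1 changed under at least 1 setting, and Dag1 and Lamb1 kept theirs over a wide range. The Dag1 difference was -0.0061 without EC-Jag1KO replicate 2, -0.16 without EC-Jag1KO replicate 3 and -0.27 with the smooth muscle covariate. The Lamb1 difference was 0.16 when Wild-type replicate 2 was left out and reached 0.57 without both high-Xist libraries.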

How the data were processed

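Total RNA of mouse aorta was sequenced in 6 libraries. The authors deposited FPKM values for 35275 genes, and per the file headers the table also gives gene length, span and biotype. The submitters' processing notes name STAR, HTSeq, edgeR and the build mm10, with no role or version. The sources used here give no annotation release, strand setting or filter.

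In each library the smallest FPKM times gene length above 0 was taken as a single read, and this scale was refined by rounding. With it 211650 of 211650 values gave whole reads (within 0.05 of a read), which provided depth and reads for voom. The 12165 genes averaging 1 FPKM or more were fitted as log2(FPKM + 1), which understates the change of low genes, by limma 3.58.1 (R 4.3.3) on genotype alone with a variance trend. Tests were two-sided, adjusted by Benjamini-Hochberg, with a threshold of 0.05. Plots used matplotlib 3.10.9 in Python 3.11.15. Chi-square per degree of freedom between libraries was 30.9 to 94.9, so no library was entered more than once. The fit was tested on simulated data.

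Members, lists and tests were chosen with earlier results of these data known. Of 163 listed symbols 162 were matched, 5 by identifier. Named were the members, each list of 5 genes or fewer, otherwise the 3 largest differences of a list, the 5 genes most like Bcam and like Lama5, and genes named for their values beside a count. Some genes that this rule would name are not reported here. Of the fixed marker lists, those of other tissues are given in the closing section. Alternatives covered pseudocount, filter, scaling, variance model, weights, covariates, the replicate number as a block, recovered reads and each library left out.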

Additional observations from a re-analysis of the deposited data

How the results depend on the processing

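Bcam ranged from -0.73 to -0.69 and Lama5 from -0.47 to -0.32 over 21 alternatives, of which the smooth muscle and endothelial covariates were chosen after seeing the data, as was the Lama5 share without both high-Xist libraries. The number of genes past the adjusted limma threshold, 0 as reported, was 1647 with array weights, which gave EC-Jag1KO replicate 1 a weight of 14.7, 1 with a sex covariate and 2 without both high-Xist libraries. With 1 library left out it ranged from 0 to 4, the latter without EC-Jag1KO replicate 1. The number at an unadjusted p under 0.05, 938 as reported, was 1436 with no filter, 612 with a mean of at least 5 FPKM and 4215 with array weights. With 1 library left out it ranged from 594 to 1437, the lowest without EC-Jag1KO replicate 1 and the highest without EC-Jag1KO replicate 2, and was 601 without Wild-type replicate 2. More or fewer genes tested accompany the filter values, and the cause of the others was not tested. The Lama5 share of alpha chains differed by -8.30 percentage points as reported and by -10.2 to -7.08 with 1 library left out. Without both high-Xist libraries it differed by -6.77.

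Same-numbered libraries did not deviate together (r of 0.055, 0.051 and -0.050), which gives no sign of pairing by number. So few libraries cannot exclude it, and the library high in Xist was replicate 3 in both genotypes. With the replicate number as a block the Bcam difference was -0.72 (95% interval -1.06 to -0.37), and 0 genes passed the adjusted threshold and 842 had an unadjusted p under 0.05. The 95% interval of Lamb1, -0.092 to 0.79 as reported, excluded 0 in only 3 of 21 settings. These were 0.27 to 0.86 with array weights, 0.092 to 1.06 without both high-Xist libraries and 0.028 to 0.94 without Wild-type replicate 3. The interval of Lama4, -0.12 to 0.36 as reported, excluded 0 in 1 of 21, at 0.032 to 0.30 with array weights. That of Lamb2 excluded 0 in 4 of 21. The members were chosen with this contrast known, so these counts describe the settings and are no test. Lama3, on 86 to 389 reads, is the member most limited by depth.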

Other observations

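Other cell types of the vessel and its surroundings were read from 8 markers each, as sums of FPKM over the libraries of a genotype. Fibroblast markers summed to 1237 to 1474 in Wild-type and 1320 to 1502 in EC-Jag1KO libraries. Pericyte markers summed to 297 to 493 and 314 to 452. Macrophage markers summed to 187 to 239 and 218 to 249. Schwann cell and nerve markers summed to 143 to 149 and 155 to 184, a sum made up mostly of Pmp22 and Ncam1, and of the 8 genes 0 were higher and 1, Prx, was lower without overlap. Lymphocyte markers were scarce, at 1.42 to 3.14 and 0.641 to 1.43. Cardiac muscle markers summed to 9.06 to 25.7 and 16.8 to 43.1, and skeletal muscle markers to 5.14 to 7.89 and 5.88 to 5.97. Without overlap, 2 fibroblast, 1 pericyte, 1 macrophage and 1 cardiac marker were higher, and 2 pericyte and 3 lymphocyte markers lower. Over all genes tested these shares were 6.84% and 6.73%. The lymphocyte markers averaged under 1 FPKM and were not tested, so these shares do not cover them. Krt14 and Krt5, keratins of stratified epithelium, stood at 1.84 and 0.620 FPKM in EC-Jag1KO replicate 2 and at 0.0269 FPKM or less in the other 5 libraries.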
